A study of Caenorhabditis elegans with 71 samples.

Results

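The 10 genes described here are bli-1 (C09G5.6), bli-2 (F59E12.12), col-7 (C15A11.5), col-19 (ZK1193.1), col-38 (F54C9.4), col-62 (C15A11.6), col-63 (ZK265.2), col-71 (Y49F6B.10), col-112 (Y73B6BL.34) and col-138 (C52D10.13), out of 19120 genes in the expression table of the nematode Caenorhabditis elegans. They were taken from the table by name as collagens of the adult cuticle and blister genes, and were chosen by their measured RPKM, namely the onset at 38 to 48 h in wild type (DH5) and lin-4 (DH4), and the levels in the other wild-type populations (DH2 and DH3). All values of the 10 genes are therefore given as a description, with no p-value. The identifier listed as col-112 carries the symbol bli-6 in the WBcel235 annotation.

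The series follows poly(A) RNA of whole larvae through development in 4 time courses. It addresses molting-cycle transcripts and how temperature and loss of the microRNA lin-4 bear on them. In every population larvae hatched without food and arrested in the first stage. Hours are counted from the moment they were put on plates seeded with OP50 bacteria. The lin-4(e912) mutant, labelled a knockout, was sampled every 2 h over 0 to 48 h at 20C and gave 25 libraries, called DH4. Wild type N2 at 25C gave 20 libraries, taken every 1.5 h over 0 to 28.5 h (DH3). Wild type N2 at 20C gave 20 libraries over 0 to 38 h (DH2) and, from an independent population, 6 libraries over 38 to 48 h (DH5), both taken every 2 h. Each time point is 1 library, so errors given below for 1 population measure how its time points vary. Errors of lin-4 against wild type measure how their difference varies over pairs of equal time. The mutant and the 25C larvae were each grown as 1 population, so genotype or temperature and the population itself cannot be told apart. The level of lin-4 RNA was not analysed here.

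The worm cuticle is a collagen matrix that the epidermis lays down anew before every molt. The adult cuticle differs from the larval ones: it has a fluid-filled middle layer that struts bridge, and the struts contain the collagens BLI-1 and BLI-2, without which the cuticle swells into blisters. The switch to adult collagens, of which col-19 is the standard reporter, is the last step of the heterochronic pathway. In that pathway lin-4 silences the early regulators lin-14 and lin-28, and the transcription factor LIN-29 finally activates adult genes. Mutants without lin-4 repeat early larval fates and do not make an adult cuticle.

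Levels are in RPKM, the number of reads per gene divided by gene length and library size, so they can be set beside each other between genes. Estimated depth ran from 12.3 to 36.6 M reads per library, and 1 read of these genes was worth 0.0091 to 0.096 RPKM. Epidermal RNA was present in both populations sampled at 44 to 48 h: dpy-7, rol-6, sqt-3 and mlt-10, markers of the epidermis, together held 961 to 2501 RPKM in lin-4 and 1012 to 2710 RPKM in wild type. At 38 to 42 h the sum was 1557 to 2884 RPKM in lin-4 and 334 to 1031 RPKM in wild type. The median difference of the 4 markers, 44 to 48 h minus 38 to 42 h, was -0.62 log2 in lin-4 and 1.64 log2 in wild type, where 3 of the 4 were higher by at least 1 log2 unit. In wild type the sum was 1031, 836, 334, 1012, 2710 and 2095 RPKM in the libraries from 38 to 48 h. So these markers were higher late, as the 10 genes were, but fell from 40 to 42 h and from 46 to 48 h. The summed level of the 10 genes, given below, rose at both steps. The median difference of 12 transcription factors of the epidermis and seam cells was 0.02 log2 in wild type. The part of the markers in the collagen values was not tested. None of the 4 was at 0 at 38 to 48 h. In whole larvae, fewer cells of a type and less RNA per cell cannot be told apart.

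In wild type at 20C the 10 genes together held 33.9, 30.3, 132, 1343, 7954 and 11928 RPKM in the libraries of 38, 40, 42, 44, 46 and 48 h. That was 0.0048% of all RPKM at 38 h and 1.69% at 48 h. In the lin-4 libraries of the same times the sum lay between 4.38 RPKM (38 h) and 11 RPKM (48 h). In wild type col-71 was at or above 10 RPKM from the first of these libraries, apart from 40 h. The level of 10 RPKM was first reached at 42 h by bli-1, bli-2, col-38, col-112 and col-138, at 44 h by col-63 and at 48 h by col-19, while col-7 and col-62 did not reach it. The order depends on the threshold: at 5 RPKM col-38, col-71 and col-112 were already there at 38 h, before bli-1 and bli-2. A level of 10% of the highest was first reached at 44 h by bli-1, bli-2 and col-112, at 46 h by col-38, col-63, col-71 and col-138, and at 48 h by col-7, col-19 and col-62.

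The strut collagen gene bli-1 stood at 0.723, 0.592, 22.9, 196, 568 and 164 RPKM in the wild-type libraries of 38, 40, 42, 44, 46 and 48 h. In lin-4 it stayed between 0.103 and 0.237 RPKM at these times. The strut collagen gene bli-2 was at 1.74, 1.60, 35.0, 292, 1009 and 525 RPKM in wild type and between 0.265 and 1.61 RPKM in lin-4. Both peaked at 46 h and were lower at 48 h, bli-1 by 3.47-fold and bli-2 by 1.92-fold. None of the other 8 genes was lower at 48 h than at 46 h. From 40 to 42 h bli-1 stepped up 38.7-fold and bli-2 21.9-fold, against at most 3.89-fold for each of the other 8 genes.

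The gene listed as col-112, whose current symbol bli-6 places it among the blister genes, did not follow this peak. It had 5.69, 5.25, 20.4, 194, 1098 and 1818 RPKM in wild type from 38 to 48 h, and 0.343 to 0.876 RPKM in lin-4. Its step from 40 to 42 h was 3.89-fold, and that from 42 to 44 h was 9.48-fold. Over all 71 libraries its log2(RPKM + 1) correlated with that of bli-1 at r = 0.947, of col-138 at r = 0.962 and of col-71 at r = 0.957. These correlations are descriptions, since the points share their populations and the 6 late wild-type libraries span most of the range.

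The cuticle collagens col-138, col-38 and col-71 reached the highest levels, with col-138 at the top. It stood at 4.11, 3.91, 12.9, 175, 1702 and 3331 RPKM in wild type from 38 to 48 h. In lin-4 it was at 0.546, 1.21, 1.38, 1.92, 0.933 and 1.93 RPKM at the same times. At 48 h it was the 10th most abundant gene of the wild-type library by RPKM. The level of col-38 was 6.92, 5.85, 20.0, 250, 1727 and 2669 RPKM in wild type (17th at 48 h) and 0.365 to 1.01 RPKM in lin-4. For col-71 the wild-type levels were 11.2, 9.92, 18.5, 220, 1507 and 2487 RPKM (26th at 48 h). In the mutant it had the highest level of the 10 genes at each of these times, at 2.11, 2.61, 2.63, 3.33, 2.51 and 5.08 RPKM from 38 to 48 h. These 3 collagens differed from bli-1 and bli-2 in where they ended: each was 1.55 to 1.96 times higher at 48 h than at 46 h. The blister gene listed as col-112 ended as these 3 did, 1.66 times higher.

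The cuticle collagen gene col-63 followed later. Wild type had 2.04, 1.80, 1.61, 15.1, 339 and 807 RPKM from 38 to 48 h, so its first increase fell between 42 and 44 h. In lin-4 it was listed without a value at 38, 44 and 46 h, and at 0.053, 0.044 and 0.010 RPKM at 40, 42 and 48 h, less than the worth of 3 reads. No fold is given for it.

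The latest genes were col-19, col-7 and col-62. The adult reporter col-19 was at 0.558, 0.672, 0.351, 0.299, 2.49 and 109 RPKM in wild type from 38 to 48 h, and at 0.059 to 0.269 RPKM in lin-4. Its last step, from 46 to 48 h, was 43.9-fold. At 46 h, when bli-1 and bli-2 were at their peak, col-19 was still at 2.49 RPKM. The gene col-7, known as an adult collagen under heterochronic control, was at 0.451, 0.295, 0.360, 0.167, 0.168 and 8.46 RPKM in wild type. Its neighbour in the identifiers, col-62, was at 0.460, 0.370, 0.379, 0.204, 0.202 and 9.42 RPKM. In lin-4 both stayed between 0.077 and 0.141 RPKM at these times. Neither exceeded 0.460 RPKM in this population before its last library.

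The levels of col-7 and col-62 ran close together. Their log2(RPKM + 1) values correlated at r = 0.994 over 71 libraries. In the 67 libraries with a value for both, the ratio of col-62 to col-7 had a median of 1.02 and lay between 0.340 and 1.91. In the 23 libraries with col-7 at 0.2 RPKM or more it lay between 0.481 and 1.80. The labels do not say how reads matching both genes were divided. Their values are therefore uncertain as values of single genes.

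**Figure D1:**
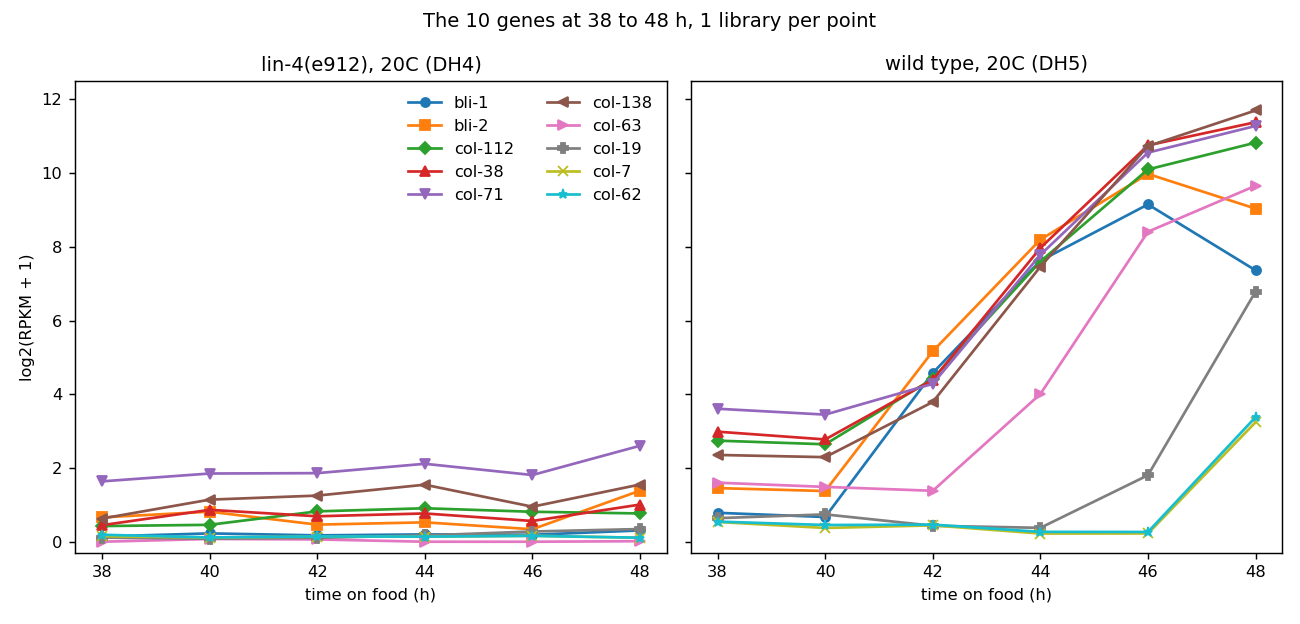
Level of the 10 genes as log2(RPKM + 1) against time on food (h) in lin-4(e912) (left) and wild type (right) at 20C, 1 library per point. In lin-4 no gene exceeds 5.08 RPKM (col-71 at 48 h), while in wild type bli-1 and bli-2 peak at 46 h and col-19, col-7 and col-62 come up last.

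The change within this window was then set beside that of all genes, as the mean log2(RPKM + 1) of 44 to 48 h minus that of 38 to 42 h. In wild type 8 of the 10 genes were higher by at least 1 log2 unit, against 11% of the 13322 genes with a mean of at least 1 RPKM (3.84% were lower). Since these times chose the genes, nothing is read from that count. The differences were 7.15 for col-138, 6.65 for col-38, 6.41 for bli-2, 6.24 for col-112, 6.09 for col-71, 6.03 for bli-1, 5.87 for col-63 and 2.38 for col-19, on the log2(RPKM + 1) scale. They were 0.82 for col-62 and 0.78 for col-7, which rest on the 48 h library. Without it they were -0.22 and -0.23, and that of col-19 was 0.49. In lin-4, 2 of the 10 genes had a mean of at least 1 RPKM, col-71 and col-138, and neither was higher by 1 log2 unit (0.39 and 0.34), against 1.25% of 12571 genes (0.0239% were lower). The median difference over all 10 genes was 0.11 in lin-4 and 6.06 in wild type, beside 0.00 and 0.03 over all genes with a mean of at least 1 RPKM.

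Between genotypes, all 10 genes were lower in lin-4 at 44 to 48 h by at least 1 log2 unit, from -9.26 to -1.09 with a median of -7.76, against 8.16% of 13438 genes (4.2% were higher). Over all 6 times, the 8 genes with a mean of at least 1 RPKM, all but col-7 and col-62, were lower in lin-4 by that much, against 3.8% of 13077 genes (2.49% were higher). These genes passed the minimum through wild type, and nothing is read from either count. At 44 to 48 h no lin-4 library overlapped a wild-type one for any of the 10. The share of all genes so apart was not taken, and these times chose the genes, so nothing is read from that either. At 46 h the wild-type level was 4068 times that of lin-4 for bli-1, 3810 times for bli-2, 3618 times for col-38, 1826 times for col-138, 1450 times for col-112 and 601 times for col-71. At 38 h the same ratios were 7.0, 3.0, 19, 7.53, 16.6 and 5.30. For col-19 the ratio was 407 at 48 h.

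A maximum of a molt marker fell in this window in the mutant too. The gene mlt-10, needed to shed the old cuticle, was at 81.8, 180, 215, 160, 45.9 and 93.4 RPKM in lin-4 from 38 to 48 h, and at 51.6, 48.8, 11.7, 37.3, 259 and 211 RPKM in wild type. So mlt-10 peaked at 42 h in lin-4, where the 10 genes together held 6.23 RPKM, and at 46 h in wild type, where they held 7954 RPKM. Of the heterochronic regulators, lin-29 was at 11.1 to 17.8 RPKM in lin-4 and 17.3 to 42.6 RPKM in wild type at 38 to 48 h. The gene lin-41, which holds lin-29 back in larvae, was at 42.7 to 60.8 RPKM in lin-4 and 5.97 to 19.9 RPKM in wild type.

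Yolk and sperm genes were also higher in the late wild-type libraries, while other tissue markers were not. The median difference in wild type, 44 to 48 h minus 38 to 42 h, was -0.17 log2 for 4 intestine markers. It was -0.13 for body wall muscle, -0.21 for neurons, -0.78 for pharynx and 0.57 for germline. In each of these lists 0 genes were higher by at least 1 log2 unit. The summed level of the 6 yolk protein genes of the adult intestine was 1.18 to 6.29 RPKM in lin-4 and 39.4 to 464 RPKM in wild type at 44 to 48 h, and 0.593 to 0.961 RPKM in lin-4 and 4.11 to 16.0 RPKM in wild type at 38 to 42 h. All 6 were higher at 44 to 48 h than at 38 to 42 h in wild type by at least 1 log2 unit. The sum of 4 sperm genes (msp-3, msp-10, spe-9 and spe-11) was 0.731 to 8.49 RPKM in lin-4 and 14.8 to 82.9 RPKM in wild type at 44 to 48 h. Of these 4, spe-11 was at 0 in a lin-4 library, and no yolk gene was at 0 in either population. Their part in the collagen values was not tested.

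**Figure D2:**
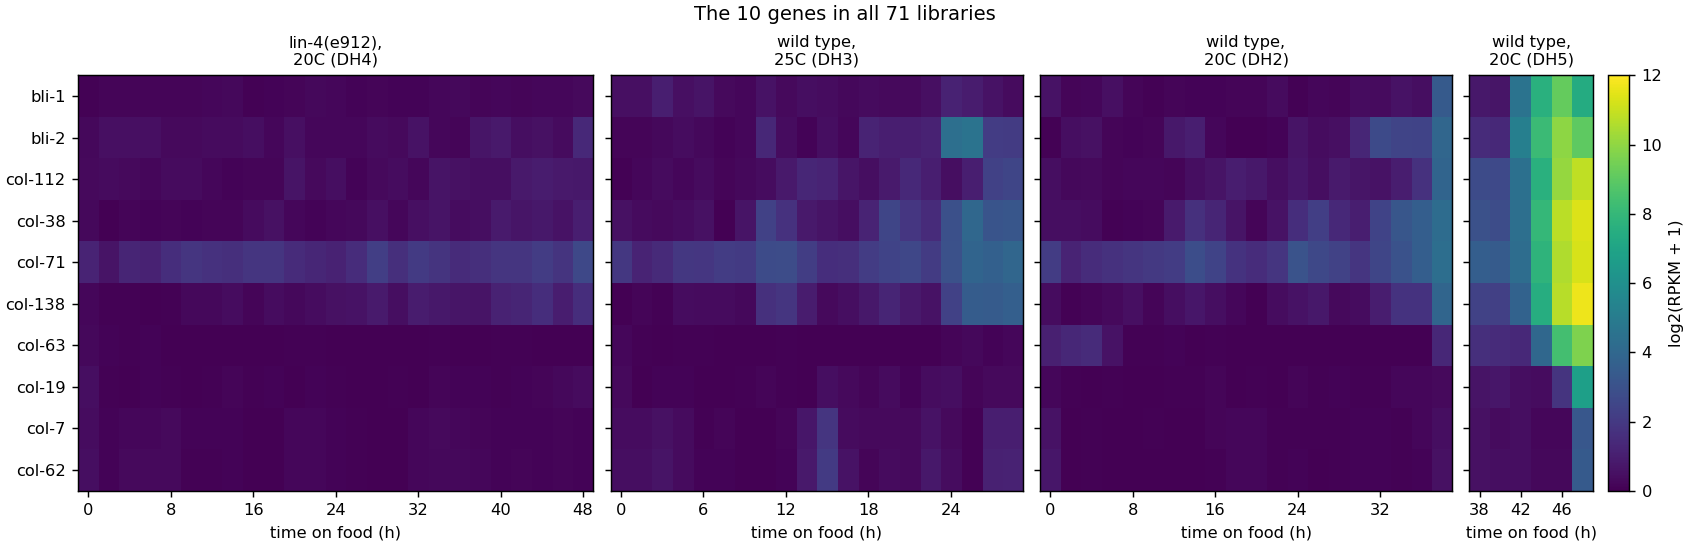
Level of the 10 genes (rows) as log2(RPKM + 1), by colour, in each of the 71 libraries (columns, by time on food in h) of the 4 populations, with lin-4 on the left and the late wild-type population on the right. Values over 100 RPKM occur in the late wild-type libraries alone, from 44 h on.

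Both wild-type populations were sampled at 38 h, with 1 library each. In the first (DH2) 6 of the 10 genes were higher than in the second (DH5): bli-1 was at 9.44 RPKM in the first and 0.723 RPKM in the second, and bli-2 at 14.7 and 1.74 RPKM. The pairs were 14.2 and 4.11 RPKM for col-138, 17.9 and 6.92 RPKM for col-38, 13.8 and 5.69 RPKM for col-112, and 19.3 and 11.2 RPKM for col-71. The other 4 genes were lower in the first population, among them col-63 with 1.53 and 2.04 RPKM. Of the 7 genes with a mean of at least 1 RPKM, 5 were higher in the first population by at least 1 log2 unit, against 1.28% of 12275 genes (0.261% were lower), and nothing is read from that count. For bli-1, bli-2, col-38 and col-112 the 38 h level of the first population lay between the 40 and 42 h levels of the second. The molt marker mlt-10 was at 55.0 RPKM in the first and 51.6 RPKM in the second, and lin-41 at 18.1 and 19.9 RPKM. Less close were mab-10 with 23.6 and 12.2 RPKM and the summed 6 yolk protein genes with 7.53 and 4.11 RPKM. Whether the populations were at the same stage at 38 h was not tested.

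Before this window the genes were low, but some were not silent. In lin-4 the highest level of any of the 10 genes before 38 h was 3.62 RPKM, of col-71 at 28 h. For bli-1 the 25 lin-4 libraries had a lowest, median and highest level of 0.034, 0.127 and 0.237 RPKM. For col-19 they had 0, 0.064 and 0.367 RPKM, the highest being at 0 h. In wild type, col-71 had the highest median level of the 10, at 3.38 RPKM at 25C and 3.32 RPKM at 20C (DH2). The gene col-63 was at 1.06, 1.52, 1.79 and 0.514 RPKM at 0, 2, 4 and 6 h in wild type at 20C and at or under 0.077 RPKM at 8 to 36 h. At 25C its highest level was 0.215 RPKM and in lin-4 0.202 RPKM, so the early level was seen in 1 population. A short pulse of col-7 and col-62 occurred at 25C at 15 h, with 2.56 and 3.05 RPKM, against 0.636 and 0.783 RPKM at 13.5 h and 0.284 and 0.511 RPKM at 16.5 h. No library of the other 3 populations before 48 h reached these levels.

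Small maxima of several genes preceded the 38 to 48 h window in wild type. At 25C, col-38 peaked at 10.5 h (3.97 RPKM), 19.5 h (4.70 RPKM) and 25.5 h (15.1 RPKM), the times at which mlt-10 peaked. At 20C its maxima were at 14 h (2.16 RPKM) and 26 h (3.63 RPKM), again times of mlt-10 maxima. For col-71 the maxima at 25C were at 4.5 h (2.90 RPKM), 7.5 h (3.34 RPKM), 12 h (5.90 RPKM), 21 h (4.87 RPKM) and 25.5 h (13.4 RPKM), the last of them a time of an mlt-10 maximum. Those of col-71 at 20C were at 14 h (6.15 RPKM) and 24 h (7.45 RPKM). In lin-4, where mlt-10 had maxima at 18, 28, 32 and 42 h, col-71 had maxima before 38 h at 4 h (1.35 RPKM), 10 h (2.58 RPKM), 16 h (2.63 RPKM), 28 h (3.62 RPKM) and 32 h (3.05 RPKM). So at 28 and 32 h its maxima in the mutant fell on those of mlt-10 (205 and 226 RPKM). The level of col-38 in lin-4 never exceeded 0.528 RPKM before 38 h. The strut collagen bli-2 had a pulse at 25C, with 19.7 RPKM at 24 h and 22.4 RPKM at 25.5 h, and 3.36 and 3.30 RPKM at 27 and 28.5 h. Its peak at 25.5 h fell on an mlt-10 maximum. Smaller bli-2 maxima came at 10.5 h (1.55 RPKM) and 18 h (1.29 RPKM) at 25C, and at 14 h (1.04 RPKM) at 20C. Of these times, 10.5 and 14 h were times of mlt-10 maxima and 18 h was not. At 20C bli-2 reached 5.51 RPKM at 32 h, before the level of 14.7 RPKM at 38 h. The pulse of bli-1 in these libraries was far smaller, at 1.19 RPKM at 24 h at 25C.

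**Figure D3:**
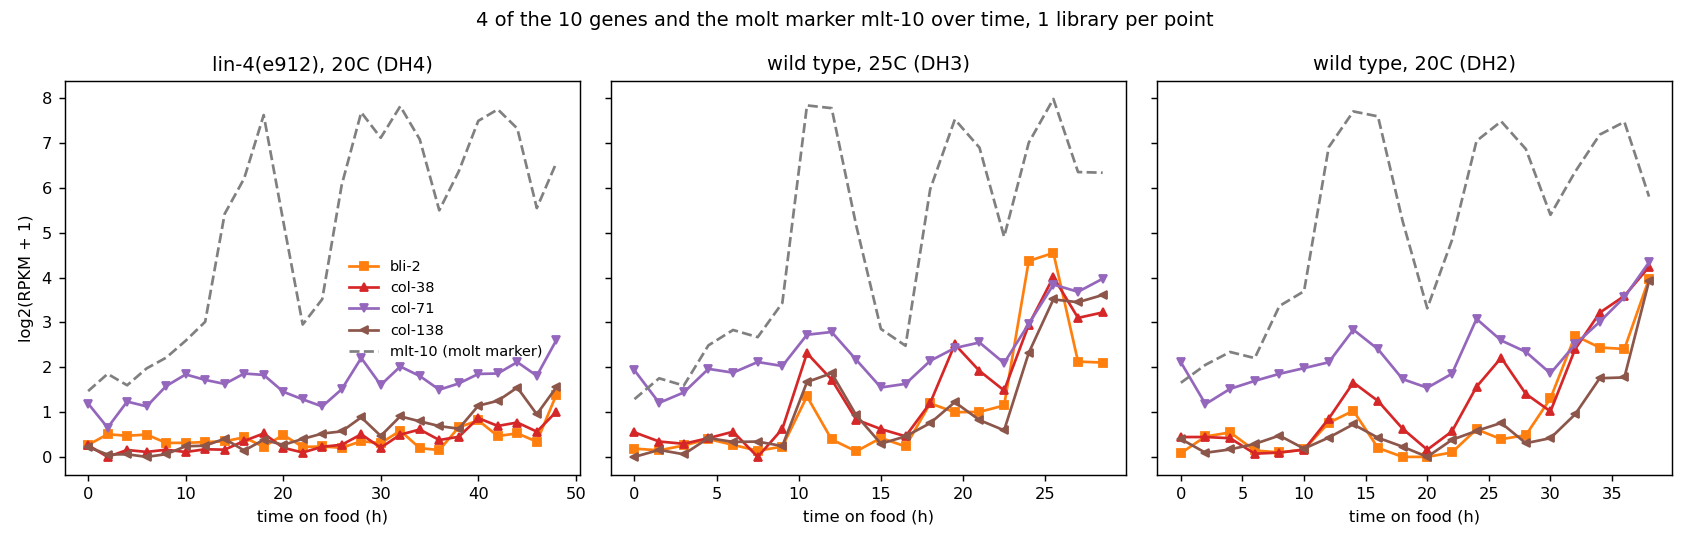
Levels of bli-2, col-38, col-71 and col-138 and of the molt marker mlt-10 (dashed) as log2(RPKM + 1) against time on food (h) in lin-4 at 20C (left) and in wild type at 25C (middle) and 20C (right), 1 library per point. In wild type col-38 has small maxima beside those of mlt-10, as at 10.5 and 19.5 h at 25C, while in lin-4 it stays at or under 1.01 RPKM through all cycles of mlt-10.

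In the 25C population, which ends at 28.5 h, none of the 10 genes exceeded 22.4 RPKM. Its last libraries were set beside those about 1 molting cycle earlier. The phases of the cycle were not matched exactly. The molt marker mlt-10 was at 253, 80.9 and 80.1 RPKM at 25.5, 27 and 28.5 h, and at 61.8, 184 and 118 RPKM at 18, 19.5 and 21 h. The part of phase in the differences was not tested. At 25.5, 27 and 28.5 h, col-138 had 10.4, 9.94 and 11.2 RPKM, against 0.686, 1.33 and 0.767 RPKM at 18, 19.5 and 21 h. The difference was 2.59 ± 0.16 log2 (SE, 3 libraries each). For col-71 the levels were 13.4, 11.9 and 14.7 RPKM, against 3.42, 4.39 and 4.87 RPKM, a difference of 1.46 ± 0.15. The later levels of col-38 were 15.1, 7.58 and 8.34 RPKM and the earlier ones 1.30, 4.70 and 2.78 RPKM, a difference of 1.57 ± 0.40. It was 1.86 ± 0.68 for bli-2 and 1.04 ± 0.46 for col-112, and between 0.04 and 0.48 for bli-1, col-7, col-19, col-62 and col-63. The groups did not overlap for bli-2, col-38, col-63, col-71 and col-138. For col-63 this rests on few reads, with 0.215, 0.102 and 0.143 RPKM against 0, 0.015 and 0.011 RPKM. The share of all genes so apart was not taken, so nothing is read from this list. In a limma fit over all genes with a mean of at least 1 RPKM, 2 of the 10 genes (col-71 and col-138) were called higher, at an adjusted p under 0.05 and a difference of at least 1 log2 unit, against 0.901% of 12648 genes (0.49% were lower). Since the levels in this population were in view when the genes were chosen, and col-138 passed the minimum through its later libraries, nothing is read from that count. Without the library of 21, 27 or 28.5 h limma called 0 of all genes, with 3178, 2251 and 2207 genes at an unadjusted p under 0.05. With the 21 to 24 h libraries as the earlier group it also called 0 genes (2218 at an unadjusted p under 0.05).

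At 20C the libraries of 34, 36 and 38 h of the first wild-type population were set beside those of 22, 24 and 26 h. Here too the phases differed, with mlt-10 at 145, 177 and 55.0 RPKM in the later libraries and 27.5, 131 and 178 RPKM in the earlier ones. The part of phase was again not tested. There bli-2 was at 4.43, 4.31 and 14.7 RPKM, against 0.071, 0.532 and 0.315 RPKM, a difference of 2.57 ± 0.44 log2 (SE, 3 libraries each). The collagen col-38 was at 8.31, 11.1 and 17.9 RPKM, against 0.482, 1.96 and 3.63 RPKM, a difference of 2.24 ± 0.46. The groups did not overlap for bli-1, bli-2, col-19, col-38, col-63, col-112 and col-138. For col-19 (0.141, 0.152 and 0.231 RPKM against 0, 0.107 and 0.050 RPKM) this rests on few reads. The same holds for col-63, with 0.024, 0.027 and 1.53 RPKM against 0, 0.020 and 0 RPKM. The share of all genes so apart was not taken, so nothing is read from this list. The difference was 1.91 ± 0.59 for col-138, 1.64 ± 0.72 for col-112, 1.27 ± 0.77 for bli-1 and 1.13 ± 0.43 for col-71, and between 0.16 and 0.46 for the other 4 genes. For bli-1 the later levels were 0.495, 0.373 and 9.44 RPKM, so the 38 h library stands apart, and the earlier ones were 0.262, 0.045 and 0.169 RPKM. In the limma fit 2 of the 10 genes (bli-2 and col-38) were called higher, against 1.99% of 12437 genes (1.26% were lower). Nothing is read from that count either: the levels in this population were in view when the genes were chosen, and bli-1, bli-2, col-112 and col-138 passed the minimum of 1 RPKM through the later libraries. After median-of-ratios rescaling the calls over all genes split into 286 higher and 116 lower, where the deposited scale gave 247 and 157. Without the library of 24, 36 or 38 h limma called 0 of all genes, with 3255, 2621 and 2663 genes at an unadjusted p under 0.05. Against 28 to 32 h it also called 0 genes (1746 at an unadjusted p under 0.05).

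Across the earlier hours, 6 to 36 h, lin-4 was compared with wild type at 20C over 16 pairs of equal time. Equal time was not equal phase of the molting cycle. At 12 h mlt-10 was at 7.08 RPKM in lin-4 and 119 RPKM in wild type, and at 14 h at 41.9 and 208 RPKM. Its first maximum was at 18 h in lin-4 (197 RPKM) and at 14 h in wild type. The part of phase in the differences below was not tested. The lowest, median and highest level of col-38 were 0.070, 0.161 and 0.528 RPKM in lin-4, against 0.051, 1.20 and 11.1 RPKM in wild type. It was lower in lin-4 in 13 of 16 pairs, with a mean difference of -1.02 ± 0.23 log2 (SE). The levels of col-71 were 1.18, 2.07 and 3.62 RPKM in lin-4, against 1.91, 3.70 and 10.8 RPKM in wild type. It was lower in 15 of 16 pairs, with a difference of -0.68 ± 0.16. The difference was -0.48 ± 0.22 for bli-2 and -0.31 ± 0.08 for col-112, and between -0.17 and 0.07 for the other 6 genes. In the limma fit 1 of the 10 genes (col-38) was called lower, against 0.63% of 12855 genes (0.335% were higher). It passed the minimum of 1 RPKM through wild type, and without the pair of 36 h its mean was below 1 RPKM, so nothing is read from that count. Over 24 to 36 h alone, 3 of the 10 genes had a mean of at least 1 RPKM, with differences of -1.82 ± 0.29 for col-38, -1.19 ± 0.33 for bli-2 and -1.03 ± 0.26 for col-71. Of these, col-38 and col-71 were called lower and bli-2 was not, against 0.871% of 12515 genes (0.4% were higher). Nothing is read from these calls either. The wild-type levels were in view when the genes were chosen, and col-38 and bli-2 passed the minimum through wild type.

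Several lists of other cuticle and epidermal genes, but not all, also had medians well below 0 in lin-4 minus wild type at 6 to 36 h. The median difference was -0.59 log2 over 110 other cuticle collagens, of which limma called 8 lower and 0 higher. It was -0.75 over 6 annular furrow collagens, -0.72 over 9 molt markers and -0.86 over the 4 epidermis markers, with 0 called in these 3 lists, beside 0.09 over all genes. Nearer to the value of all genes were 9 enzymes of collagen modification and cross-linking (-0.13) and 13 transcription factors of the epidermis and seam cells (0.05). The part of these shifts in the values of col-38 and col-71 was not tested.

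**Figure D4:**
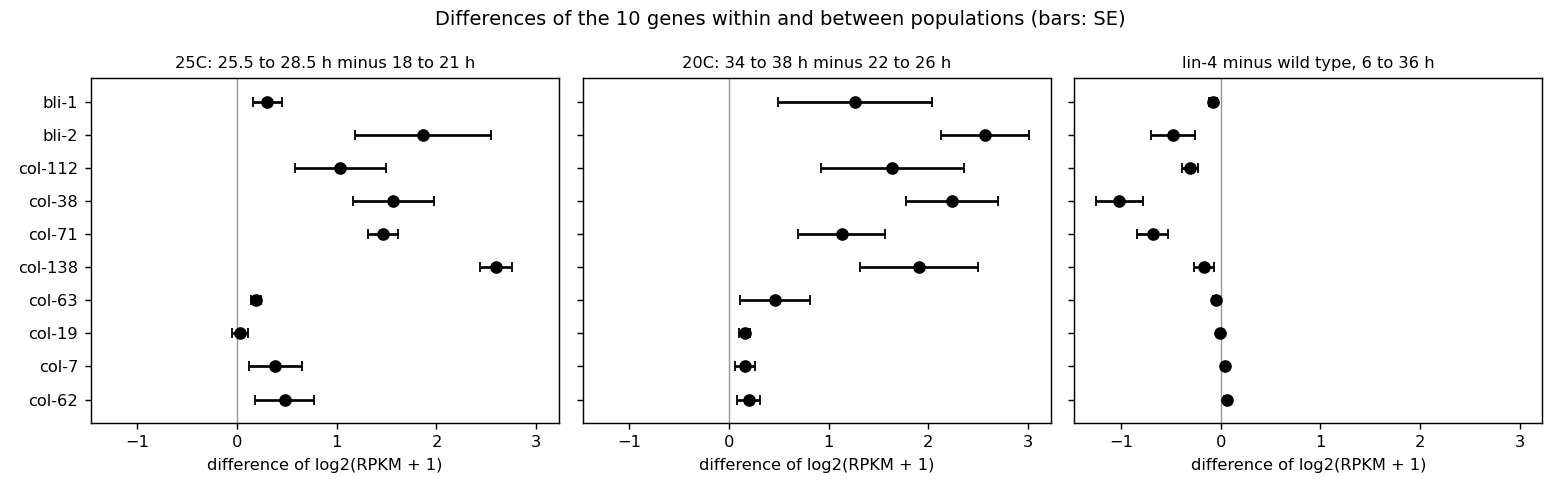
Differences of mean log2(RPKM + 1) with SE for the 10 genes: 25C, 25.5 to 28.5 h minus 18 to 21 h (left, 3 libraries each); 20C, 34 to 38 h minus 22 to 26 h (middle, 3 libraries each); lin-4 minus wild type over 16 pairs (right). The points farthest from 0 are col-138 at 25C (2.59), bli-2 at 20C (2.57) and col-38 in lin-4 (-1.02).

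Other cuticle collagens split in direction. In wild type at 44 to 48 h against 38 to 42 h, 44 of 130 with a mean of at least 1 RPKM were higher by at least 1 log2 unit and 42 were lower, with a median of 0.09. In lin-4, 4 of 109 were higher and 0 lower. The 5 with the largest increase in wild type were col-175 (7.49), col-49 (6.89), col-70 (5.12), col-110 (4.96) and col-79 (4.58), in log2 units. At 48 h col-175 had 0 RPKM in lin-4 and 1829 RPKM in wild type, and col-70 had 18.8 RPKM in lin-4 and 173 RPKM in wild type.

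Among 10 genes of collagen modification and cross-linking with a mean of at least 1 RPKM, 2 were higher and 3 lower by at least 1 log2 unit in wild type at 44 to 48 h against 38 to 42 h, a description with no test. The peroxidase gene mlt-7, which cross-links cuticle, was lower by -2.04 log2, at 19.1, 15.1 and 23.1 RPKM at 44 to 48 h against 97.9, 113 and 47.3 RPKM at 38 to 42 h. The gene doxa-1, a maturation factor of the oxidase that makes the peroxide, was lower by -1.49. The prolyl hydroxylase gene phy-2 was higher by 1.19, and dpy-18, another subunit of that enzyme, by 1.05. In lin-4 none of 9 differed by 1 log2 unit. Of 9 molt markers 8 were higher in wild type in the same contrast, as qua-1 (2.41), mlt-9 (2.10), mlt-10 (2.00) and nas-37 (1.96), and 0 of 9 in lin-4. Of 9 heterochronic genes 2 were higher, lin-42 (1.53) and mab-10 (1.13), and 2 lower, lin-46 (-1.79) and lin-41 (-1.10).

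Genes with the most similar course were ranked by the Pearson correlation of log2(RPKM + 1) with the mean of the 10 genes over the 71 libraries, among 11355 genes that reached 10 RPKM. Of these, 127 had r of at least 0.9. At the top were the collagen genes col-49 (r = 0.985), rol-1 (0.975), mutation of which makes worms roll, and col-175 (0.961). The yolk protein gene vit-6 (0.960) came next, with genes of sperm protein families, ssp-9 and ssp-11 (0.952 each), F44D12.5 (0.951), now called msd-2, and msp-50 (0.949), and with snf-5 and Y39B6A.9 (0.950 each). The points share 4 populations, and the 10 genes have their highest levels in the 6 late wild-type libraries. For rol-1 these held 2.20, 1.16, 2.43, 45.1, 786 and 1752 RPKM from 38 to 48 h, while lin-4 stayed at or under 0.094 RPKM.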

How the data were processed

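Poly(A) RNA of 71 libraries, each 1 time point of 1 of 4 populations, was measured by sequencing. The authors deposited 1 table of RPKM values per gene and library. The aligner was BWA 0.5.9 according to the submitters' processing notes. Genome build, annotation, counting rule and strand use are not stated in the labels or headers, so no coordinates are given, and antisense or overlapping genes could share reads. Of 21777 entries, 2643 with RIT identifiers and 11 others without a name were left out (1.58 to 3.03% of summed RPKM), and 3 identifiers listed under a pair of names were kept once, which leaves 19120 genes. Cells without a value were taken as 0. Depth (12.3 to 36.6 M reads, medians 29.0 M for DH4, 23.2 M for DH3, 19.8 M for DH2 and 30.4 M for DH5) was inferred from the spacing of low values, with transcript lengths of the WBcel235 annotation, and is approximate.

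Genes averaging at least 1 RPKM over the libraries compared were tested on the log2(RPKM + 1) scale with limma 3.58.1 (lmFit, eBayes with trend) under R 4.3.3. P-values were adjusted by Benjamini-Hochberg over all genes tested, and a gene was called at an adjusted p under 0.05 and a difference of at least 1 log2 unit. The scale understates changes of low genes. Python 3.11.15, NumPy 2.4.6, pandas 2.3.3 and Matplotlib 3.10.9 did the rest, and the limma step was tested on simulated data. The 10 genes and the gene lists were chosen with earlier results of these data known, so p-values of the 10 are not given, although tests of them had been planned. Their differences and SE are from the fit without the filter, except those over 24 to 36 h alone. All 10 genes are named. From the lists of enzymes, molt markers and heterochronic genes up to 4 with the largest wild-type difference at 38 to 48 h are named, with lin-29 and mlt-10 added for their roles after their values were seen. Of other collagens the 5 with the largest increase are named, and of genes alike in course the 10 with the highest r. Pairs of lin-4 and wild-type libraries follow from the labelled time. Alternatives were other pseudocounts, filters, scalings and earlier groups, each library or pair left out, and no time term.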

Additional observations from a re-analysis of the deposited data

Results flagged for a closer look

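In the late wild-type population at 20C, the 48 h library lay apart from the other 5 for 3 of the 10 genes, by the gap to the nearest library relative to the whole range (Dixon's limit for 6 libraries). On the log2(RPKM + 1) scale col-19 was at 6.79 there, col-62 at 3.38 and col-7 at 3.24. These times chose the genes and the libraries are successive time points, so the distances are a description and not a test. In all, 20 groups were checked, and even in groups without such an order about 1 in 20 is flagged. The levels of col-7 and col-62 correlated at r = 0.994 over the 71 libraries, so theirs are not independent.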

How the results depend on the processing

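Of 258 values of single genes under the alternatives, 256 kept their direction and 222 also their call or size. The exceptions in direction were col-7 (-0.23) and col-62 (-0.22), late minus early in wild type, without the 48 h library; leaving out single libraries gave -0.23 to 1.28 for col-7 and -0.22 to 1.34 for col-62.

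Calls among the 10 genes are counts only, since the rule used these levels. At 25C, limma called 176 genes and 2 of the 10. With a pseudocount of 0.1 it called 328 genes, with 5 it called 42 and 1 of the 10, and with a mean of at least 5 RPKM 108. Against 21 to 24 h it called 0 and 0 of the 10 (2218 genes at an unadjusted p under 0.05). Leaving out single libraries gave 0 to 413 genes and 0 to 3 of the 10. At 20C it called 404 genes and 2 of the 10. With a pseudocount of 0.1 it called 777, with 5 it called 101 and 1 of the 10, and with a mean of at least 5 RPKM 209 and 1 of the 10. Against 28 to 32 h it called 0 and 0 of the 10 (1746 genes at an unadjusted p under 0.05), and leaving out libraries gave 0 to 569 genes and 0 to 2 of the 10. In lin-4 against wild type it called 124 genes and 1 of the 10. With a pseudocount of 0.1 it called 232, with 5 it called 40 and 0 of the 10, with a mean of at least 5 RPKM 0 of the 10, over 24 to 36 h alone 2 of the 10, and without single pairs 0 or 1. The causes were not tested, but fewer libraries enter each leave-out fit.

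For the pairs of equal time, deviations from group means correlated with a median r of 0.44 over 16 pairs (12 over 0.1), and 1 of 16 lin-4 libraries correlated best with the wild-type library of its own time. Without the time term (no replicate block) limma called 95 genes and 1 of the 10, col-38. Levels under about 0.1 RPKM rest on few reads, and the late wild-type population ends at 48 h.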
